A study of Mus musculus with 8 samples.

Results

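Mouse kidney tubuloids were compared by ATAC-seq at 55 promoter peaks of nuclear genes for the mitochondrial ribosome (22 peaks), the respiratory complexes with their assembly factors (25) and protein import (8). ATAC-seq uses the transposase Tn5 to cut and tag accessible DNA, so a higher peak value means more tagged fragments from that region. The members were the peaks whose centre lay 1000 bp or less from the assigned transcription start site and whose assigned gene symbol began with Mrpl, Mrps, Nduf, Cox and a digit, Uqcr, Atp5, Sdha to Sdhd, Timm or Tomm. They were 55 of 6425 peaks, and of 4162 peaks within that distance of a start site, and each member gene had a single peak. The rule itself used no measured value, but the members were chosen with earlier results of these data known.

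All libraries came from wild-type mice, as primary tubuloids grown in Matrigel from dissociated renal cortex. The 4 control libraries were vehicle-treated and the other 4 were from tubuloids given myoglobin, the haem protein of muscle, to injure the tubule cells. Both groups were collected at 12 h. The mice numbered 4, their ages are not given in the labels, and no label ties a library to a mouse, so the p-values measure the spread between these libraries, which may in part be technical.

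Most mitochondrial proteins are encoded in the nucleus, made in the cytosol and imported. The TOM complex is the entry gate of the outer membrane, and TIM complexes take precursors into or across the inner membrane. The mitochondrial ribosome, built from imported Mrpl (large subunit) and Mrps (small subunit) proteins, translates the few subunits that mitochondrial DNA encodes. Those join imported subunits in complexes I, III, IV and V, while complex II is nuclear in origin throughout. Tubule cells, above all those of the proximal tubule, rely on this machinery for the ATP that drives reabsorption, and NRF1, GABP (an ETS factor) and YY1 are known regulators of such nuclear genes.

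The values are whole numbers that the authors had scaled between libraries, and the spacing of the numbers gave an estimate of the reads behind them. Vehicle libraries held an estimated 130223 to 200367 reads in peaks and myoglobin libraries 67606 to 124453, so the groups did not overlap in depth, and the part of depth in any difference was not tested. At the members, the median peak had 23 estimated reads per vehicle library and 13.5 per myoglobin library. Of 7 genes listed for the proximal tubule 2 had a peak, Cryl1 and Cdh16, and as Cdh16 is known along the whole tubule their sum (50 to 62 in vehicle, 45 to 67 in myoglobin) does not measure proximal cells. Of 5 distal genes Scnn1g had a peak (13 to 23 and 19 to 24), and of 4 epithelial genes Cdh1 and Epcam (37 to 60 and 34 to 50 summed). In bulk libraries fewer cells of a type and less open chromatin per cell cannot be told apart. No endothelial, fibroblast, immune or podocyte marker of the lists had a peak, and neither did Lrp2 and Slc34a1, which define the proximal tubule.

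The sequences of a few promoters are given as examples. Mrpl9, Mrpl45, Ndufs7 and Cox14 were among the members that stood farthest apart between the groups. Mrpl32 held the most NRF1 matches, and Timm13 was the highest inner membrane import peak. Whether sequence plays a part in any difference was not tested. Each sequence is the RefSeq window on GRCm38.p6 from 250 bases before to 50 bases after the start, read 5′ to 3′ on the gene's strand. Capitals mark matches on either strand to the letters GCGCATGC (NRF1), CCGGAAGT (ETS factors), AAGATGGC (YY1) or CCAAT (NF-Y).
Mrpl9: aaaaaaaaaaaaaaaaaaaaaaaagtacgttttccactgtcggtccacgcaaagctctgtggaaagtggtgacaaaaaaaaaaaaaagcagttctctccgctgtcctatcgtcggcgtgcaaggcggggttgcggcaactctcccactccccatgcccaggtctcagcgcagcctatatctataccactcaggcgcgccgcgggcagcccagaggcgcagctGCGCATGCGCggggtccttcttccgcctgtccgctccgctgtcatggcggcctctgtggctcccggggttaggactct
Mrpl32: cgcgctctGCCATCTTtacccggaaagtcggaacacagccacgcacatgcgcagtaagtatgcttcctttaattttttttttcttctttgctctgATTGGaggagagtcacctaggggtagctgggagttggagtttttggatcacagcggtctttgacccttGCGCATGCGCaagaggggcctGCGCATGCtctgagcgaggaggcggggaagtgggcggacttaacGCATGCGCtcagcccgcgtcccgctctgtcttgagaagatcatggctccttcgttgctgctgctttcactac
Mrpl45: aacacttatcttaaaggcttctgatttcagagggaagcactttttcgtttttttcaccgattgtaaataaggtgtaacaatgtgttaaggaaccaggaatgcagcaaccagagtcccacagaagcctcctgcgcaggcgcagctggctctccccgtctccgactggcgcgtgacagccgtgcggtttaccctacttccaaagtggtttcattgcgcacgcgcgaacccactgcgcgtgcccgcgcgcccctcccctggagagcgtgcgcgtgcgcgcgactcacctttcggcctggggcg
Ndufs7: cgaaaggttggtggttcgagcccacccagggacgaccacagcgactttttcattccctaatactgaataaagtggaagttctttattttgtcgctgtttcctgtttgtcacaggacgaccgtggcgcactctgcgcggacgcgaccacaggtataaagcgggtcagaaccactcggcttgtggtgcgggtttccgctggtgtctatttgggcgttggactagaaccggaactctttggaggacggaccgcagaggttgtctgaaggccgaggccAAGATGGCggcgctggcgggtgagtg
Cox14: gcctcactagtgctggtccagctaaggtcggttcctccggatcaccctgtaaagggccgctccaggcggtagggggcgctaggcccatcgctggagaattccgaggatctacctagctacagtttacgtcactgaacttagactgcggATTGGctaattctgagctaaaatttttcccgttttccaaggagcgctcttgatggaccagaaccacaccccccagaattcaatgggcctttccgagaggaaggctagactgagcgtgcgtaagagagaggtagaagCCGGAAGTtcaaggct
Timm13: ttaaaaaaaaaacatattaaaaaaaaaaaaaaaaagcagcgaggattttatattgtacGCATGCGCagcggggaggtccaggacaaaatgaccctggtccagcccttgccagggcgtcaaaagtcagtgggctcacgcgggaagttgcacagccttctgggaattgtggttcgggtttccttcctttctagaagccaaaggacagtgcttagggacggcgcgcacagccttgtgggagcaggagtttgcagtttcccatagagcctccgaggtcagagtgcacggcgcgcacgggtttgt
The windows are chr3:94443086-94443385, plus strand (Mrpl9); chr13:14612988-14613287, minus strand (Mrpl32); chr11:97315466-97315765, plus strand (Mrpl45); chr10:80249199-80249498, plus strand (Ndufs7); chr15:99725368-99725667, plus strand (Cox14); and chr10:80900920-80901219, minus strand (Timm13). The Mrpl9 window held the NRF1 letters on both strands at once, as the overlapping palindrome that begins 28 bases before the start. The Mrpl32 window held such a palindrome and 2 more NRF1 matches, beginning 87, 66 and 22 bases before the start. The Ndufs7 window held a YY1 match 24 bases past the start and the Cox14 window an ETS match 34 bases past it. The Ndufs7 match and the NRF1 match of Timm13 lie outside the measured peaks. In the Mrpl45 window none of these letters occurred. The search took exact letters only and missed variant sites, so this does not show that the window lacks a site for these factors.

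None of the 55 promoters passed the test between myoglobin and vehicle. The test was limma on log2(value + 1) with Benjamini-Hochberg adjustment over all 6425 peaks, which called 16 peaks (0.249%) in the whole table and 3 of the 4162 promoter peaks (0.0721%). The lowest adjusted p of a member was 0.61, at Mrpl45. At an unadjusted p under 0.05, 2 of 55 members (Mrpl45 and Cox14) were higher with myoglobin and 0 were lower. The same threshold held 7.6% of all peaks (3.67% higher and 3.92% lower) and 6.97% of promoter peaks (3.6% higher and 3.36% lower). The 4 vehicle and 4 myoglobin values did not overlap at 3 members, 1 higher (Mrpl34) and 2 lower (Mrpl9 and Ndufs7). That was so at 3.04% of all peaks (1.45% higher and 1.59% lower) and 2.88% of promoter peaks (1.49% higher and 1.39% lower). The count at the unadjusted threshold lay below its share and the count without overlap above it. Counts this small are not read as a result about the members. Of the 55 log2 differences 28 were above 0 and 27 below, with a median of 0.02 (quartiles -0.12 and 0.22), beside -0.01 for promoter peaks.

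**Figure D1:**
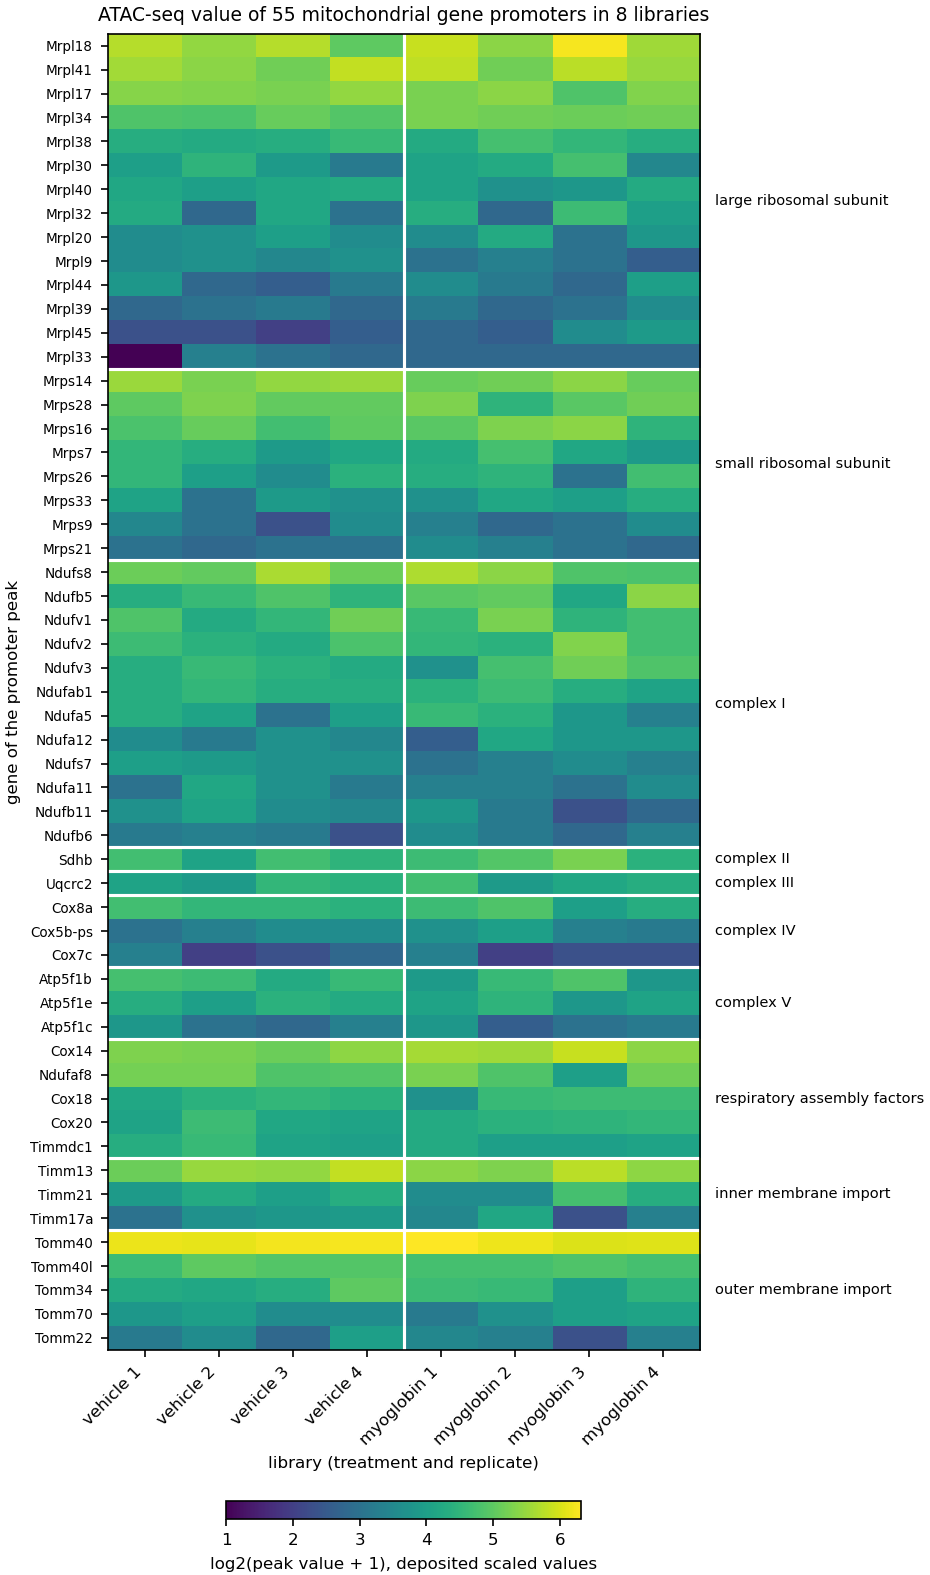
Colour gives log2(value + 1) of the deposited scaled values for 55 member promoter peaks (rows, by complex, highest mean first) in 4 vehicle and 4 myoglobin libraries (columns). Rows differ far more than columns: Tomm40 is bright throughout (65 to 79), Cox7c is dark (3 to 9), and no block of rows separates the treatments.

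Promoter levels varied much more between member genes than between treatments. The mean value over all 8 libraries ran from 5.25 at Cox7c, a structural subunit of complex IV, to 71.4 at Tomm40, the channel of the TOM complex, with a median of 17.5, which was also the median of all promoter peaks. Tomm40 was the only member with a mean of 50 or more, a level that 4.93% of promoter peaks reached, and 11 members (20%) had a mean under 10, against 20.5% of promoter peaks. Wider peaks had higher values, with Spearman's rho of 0.81 over the 55 members and 0.89 over all promoter peaks. These are descriptions across peaks, which share libraries, and a wide peak collects reads over more bases, so levels are not compared per length. The members' peaks centred close to the start, 38 (69.1%) within 100 bp of it against 55.3% of promoter peaks, and 42 (76.4%) covered it against 62.9%. At 36 members (65.45%) the peak centre lay upstream, against 63.72% of promoter peaks.

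The mitochondrial ribosome was spread on both sides of 0 with more of its log2 differences above it. Of its 22 promoters, 15 had a log2 difference above 0 and 7 below, with a median of 0.11 (quartiles -0.04 and 0.27), where 47.2% of all peaks lay above 0 and their median was -0.02. None passed the adjusted test. The large subunit's 14 peaks had a median of 0.22 and the small subunit's 8 a median of 0.06. The summed value of the class was 462, 422, 422 and 438 in vehicle replicates 1 to 4 and 475, 439, 485 and 454 in myoglobin, or 436 ± 18.9 against 463 ± 20.7 (SD, n = 4 each), and the groups overlapped. The class median was 0.19 without myoglobin replicate 2 and 0.07 without vehicle replicate 3, with 14 and 13 promoters above 0, and it was also 0.07 over the 15 promoters with a mean value of at least 10.

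Among large-subunit genes, Mrpl18 had the highest peak, at chr17:12916049-12916455. Its values were 52, 43, 52 and 31 in vehicle replicates 1 to 4 and 58, 41, 75 and 46 in myoglobin replicates 1 to 4. The spread was wide in both groups and the ranges overlapped, with a log2 difference of 0.29 ± 0.16 (SE) and adjusted p = 0.698 by limma. Mrpl41 and Mrpl17 followed, with values of 47, 41, 35 and 56 in vehicle and 55, 35, 54 and 44 in myoglobin at Mrpl41, and of 40, 39, 37 and 43 in vehicle and 37, 41, 28 and 39 in myoglobin at Mrpl17. Neither separated the groups, with log2 differences of 0.07 and -0.14.

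Mrpl45 showed the largest log2 difference of any member, at a low peak (chr11:97315619-97315795). Its protein lies at the exit of the mitochondrial ribosome's tunnel, where the ribosome meets the inner membrane. Its values were 4, 4, 3 and 5 in vehicle replicates 1 to 4 and 6, 5, 11 and 14 in myoglobin replicates 1 to 4. Myoglobin replicates 3 and 4 were high and the other 2 lay at or just above the highest vehicle value, so the groups touched at 5. The mean was 4 ± 0.817 against 9 ± 4.24 (SD, n = 4 each), the log2 difference 0.91 ± 0.42 (95% interval 0.07 to 1.75) and the limma p 0.0334 unadjusted and 0.61 adjusted. Those values stand for 21 estimated reads in the 4 vehicle libraries and 28 in the shallower myoglobin libraries.

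Mrpl34, at chr8:71464654-71464959, was the member that was higher with myoglobin without overlap. Its values were 28, 27, 33 and 29 in vehicle replicates 1 to 4 and 37, 35, 34 and 35 in myoglobin replicates 1 to 4. Every myoglobin value lay above every vehicle value, by 1 at the nearest pair, and the log2 difference was 0.26 ± 0.18 with adjusted p = 0.766 by limma. Mrpl9 stood the other way, at chr3:94443256-94443437, with values of 11, 12, 10 and 12 in vehicle and 7, 9, 7 and 5 in myoglobin. All myoglobin values were lower, again by 1 at the nearest, with a log2 difference of -0.63 ± 0.34 (95% interval -1.32 to 0.05) and adjusted p = 0.681.

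The other large-subunit promoters had overlapping groups and log2 differences from -0.19 at Mrpl40 to 0.39 at Mrpl32. Mrpl32 varied among replicates, with values of 18, 6, 17 and 7 in vehicle and 19, 6, 24 and 15 in myoglobin. In each group it had low and high libraries, and its difference of 0.39 ± 0.32 was little more than its error. Mrpl44 (0.30), Mrpl33 (0.28), Mrpl30 (0.25), Mrpl39 (0.19) and Mrpl38 (0.09) lay between these, and Mrpl20 was at -0.06. The lowest ribosomal peak, Mrpl33, had values of 1, 9, 7 and 6 in vehicle and 6 in every myoglobin library, at the limit of what these reads resolve.

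In the small subunit, Mrps14 had both the highest peak and the smallest p. Its values were 45, 37, 43 and 45 in vehicle replicates 1 to 4 and 33, 35, 41 and 33 in myoglobin replicates 1 to 4. Only myoglobin replicate 3 reached into the vehicle range, and the log2 difference was -0.25 ± 0.17 with adjusted p = 0.757 by limma. Mrps28 (31, 38, 32 and 32 in vehicle and 38, 21, 30 and 35 in myoglobin) and Mrps16 (27, 33, 25 and 31 in vehicle and 30, 38, 41 and 21 in myoglobin) were the next highest, at log2 differences of -0.13 and 0.12. Mrps33 had the largest difference of the small subunit, 0.37 ± 0.29, from values of 16, 7, 14 and 12 in vehicle and 12, 17, 15 and 19 in myoglobin, which overlapped. Mrps21 (0.23), Mrps9 (0.09), Mrps7 (0.04) and Mrps26 (-0.00) stood within 1 SE of 0.

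**Figure D2:**
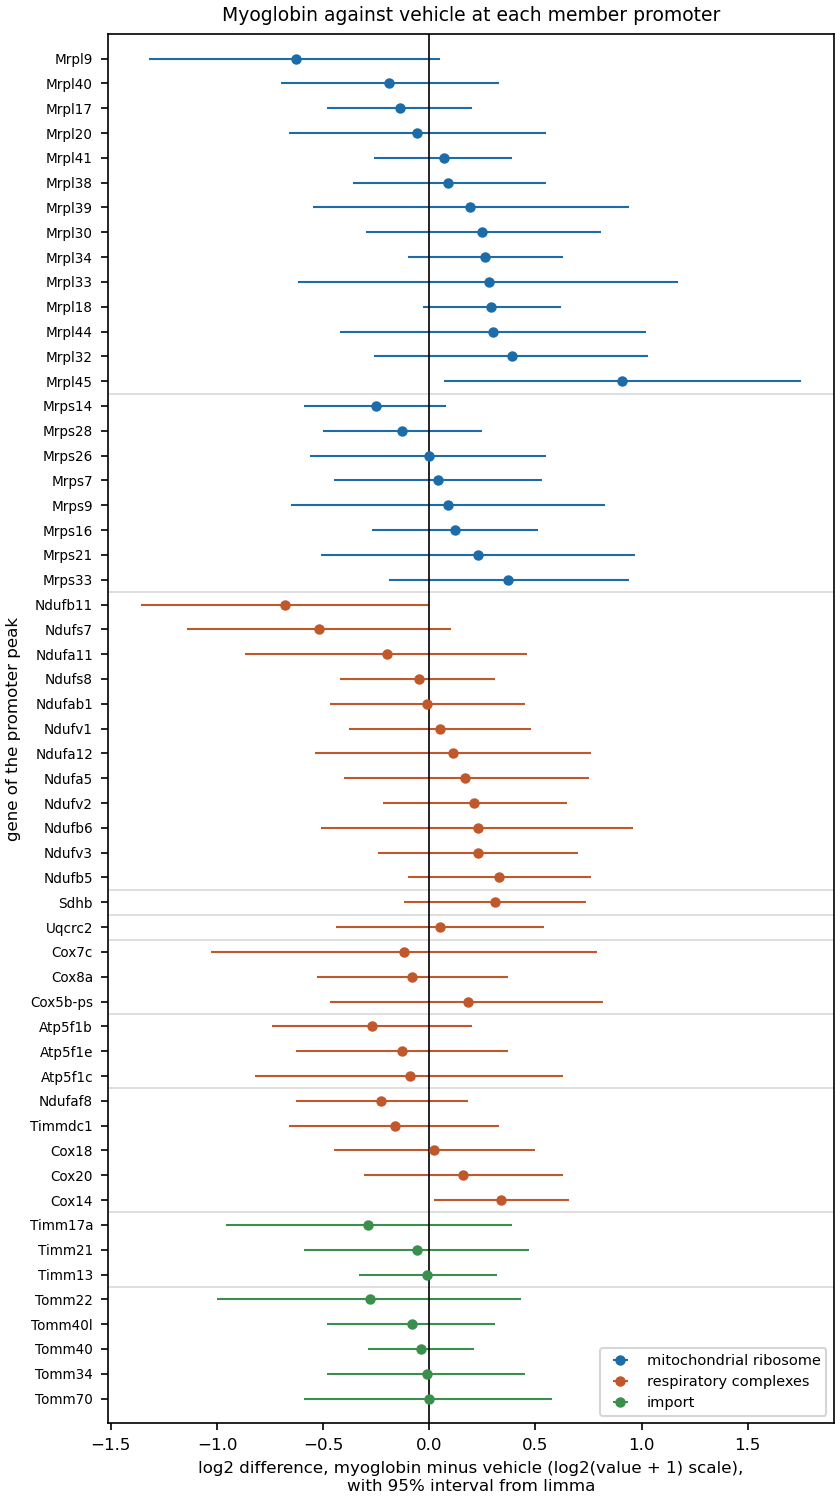
Points are log2 differences (myoglobin minus vehicle, log2(value + 1) scale) with 95% limma intervals for each member, ordered by complex. The intervals of 53 of 55 members hold 0, and those of Mrpl45 and Cox14 lie just above it.

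The respiratory complexes were balanced around 0. Of 25 promoters, 13 had a log2 difference above 0 and 12 below, with a median of 0.02 (quartiles -0.13 and 0.18), and none passed the adjusted test. Summed values were 481, 468, 463 and 463 in vehicle replicates and 495, 521, 476 and 464 in myoglobin replicates, or 469 ± 8.50 against 489 ± 24.9 (SD, n = 4 each). The groups overlapped, with myoglobin replicate 2 highest.

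Complex I, the NADH dehydrogenase that starts the chain, held 12 of these peaks. Among its catalytic core genes, Ndufs8, an iron-sulfur subunit, had the highest peak of the complex, at chr19:3912708-3913064. Its values were 34, 32, 49 and 34 in vehicle replicates 1 to 4 and 50, 41, 28 and 27 in myoglobin replicates 1 to 4. Each group held 1 or 2 high libraries and the log2 difference was -0.05 ± 0.18. Ndufv1, which binds NADH, had values of 28, 18, 22 and 35 in vehicle and 23, 37, 21 and 25 in myoglobin, and Ndufv2, its iron-sulfur partner, had 24, 20, 18 and 27 in vehicle and 22, 20, 39 and 25 in myoglobin, with log2 differences of 0.05 and 0.21 and overlapping groups at both.

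Ndufs7, an iron-sulfur subunit near the quinone site, was the complex I promoter whose groups did not overlap, at chr10:80249058-80249379. Its values were 15, 14, 12 and 12 in vehicle replicates 1 to 4 and 7, 9, 11 and 9 in myoglobin replicates 1 to 4. All myoglobin values lay below all vehicle values, by 1 at the nearest, with means of 13.2 ± 1.5 against 9 ± 1.63. The log2 difference was -0.52 ± 0.31 (95% interval -1.14 to 0.10) with adjusted p = 0.716 by limma. Ndufb11, an X-linked accessory subunit of the membrane arm, had the lowest log2 difference of all members, -0.68 ± 0.34, with values of 12, 16, 11 and 10 in vehicle and 13, 8, 4 and 6 in myoglobin. Myoglobin replicates 2 to 4 were below every vehicle library and replicate 1 was not, and the limma p was 0.0505 unadjusted and 0.649 adjusted.

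The other accessory subunits of complex I had overlapping groups. Ndufb5 stood highest in difference, at 0.33 ± 0.22, with values of 19, 23, 28 and 21 in vehicle and 30, 32, 17 and 41 in myoglobin and a wide spread in myoglobin. Ndufv3 (0.23), Ndufb6 (0.23), Ndufa5 (0.17), Ndufa12 (0.11), Ndufab1, the mitochondrial acyl carrier protein (-0.01), and Ndufa11 (-0.20) each lay within 1 SE of 0. Over the 12 promoters of complex I, 7 were above 0 and 5 below, and the median was 0.08.

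Complexes II and III had 1 member peak each. Sdhb, the iron-sulfur subunit of succinate dehydrogenase, had values of 25, 16, 25 and 21 in vehicle and 24, 29, 37 and 20 in myoglobin, and the highest were myoglobin replicates 2 and 3. The groups overlapped, at a log2 difference of 0.31 ± 0.22 (adjusted p = 0.773 by limma). Uqcrc2, a core subunit of the cytochrome bc1 complex, had values of 16, 14, 22 and 20 in vehicle and 25, 14, 17 and 19 in myoglobin and a log2 difference of 0.05 ± 0.25.

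Complex IV, cytochrome c oxidase, had 3 subunit peaks. Cox8a was the highest, with values of 25, 22, 22 and 20 in vehicle and 24, 28, 15 and 19 in myoglobin and a log2 difference of -0.08 ± 0.23. Cox7c was the lowest peak of all members, with 9, 3, 4 and 6 in vehicle and 9, 3, 4 and 4 in myoglobin, and its 95% interval of -1.03 to 0.79 was the widest. The third peak carries the symbol Cox5b-ps in the deposited table, but it lies at chr1:36691389-36691561, over the 5′ end of the RefSeq span of Cox5b (chr1:36691487-36693388), whereas RefSeq places the pseudogene Cox5b-ps on chromosome 13. Its values were 7, 9, 11 and 11 in vehicle and 12, 15, 9 and 8 in myoglobin, with a log2 difference of 0.18 ± 0.33. Groups overlapped at all 3.

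Complex V, the ATP synthase, had 3 peaks, each with a log2 difference below 0 and overlapping groups. Atp5f1b, the catalytic beta subunit, had values of 26, 24, 18 and 23 in vehicle and 14, 23, 28 and 13 in myoglobin, with myoglobin replicates 1 and 4 low and the other 2 within or above the vehicle range. Its log2 difference was -0.27 ± 0.24. Atp5f1e, the epsilon subunit, was at -0.13 ± 0.25 and Atp5f1c, the gamma subunit of the central stalk, at -0.09 ± 0.36.

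Among the 5 assembly factors, Cox14 was the second member with an unadjusted p under 0.05. Cox14 takes part in the synthesis and assembly of the COX1 subunit. Its peak at chr15:99725376-99725884 had values of 38, 37, 34 and 42 in vehicle and 48, 46, 58 and 41 in myoglobin. Myoglobin replicates 1 to 3 were above every vehicle library and replicate 4 was just below the highest, and the mean was 37.8 ± 3.3 against 48.2 ± 7.14 (SD, n = 4 each). The log2 difference was 0.34 ± 0.16 (95% interval 0.02 to 0.66), and the limma p was 0.0388 unadjusted and 0.621 adjusted. Cox18 and Cox20, which handle the COX2 subunit, were at 0.02 and 0.16. Timmdc1, counted here because it assembles the membrane arm of complex I despite its name, was at -0.16. Ndufaf8 had values of 36, 36, 28 and 29 in vehicle and 37, 28, 15 and 35 in myoglobin and a log2 difference of -0.23 ± 0.20, which was 0.05 without myoglobin replicate 3.

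The 8 import promoters showed small log2 differences. All were at or below 0, from -0.29 to -0.00, with a median of -0.05 beside -0.02 for all peaks, and each lay within 1 SE of 0. With median-ratio scaling 1 of the 8 was above 0, and with cyclic loess 3; with 1 library left out, up to 3 were. Summed values were 189, 217, 210 and 250 in vehicle and 209, 208, 211 and 208 in myoglobin, or 217 ± 25.3 against 209 ± 1.41 (SD, n = 4 each). The myoglobin sums lay inside the vehicle range.

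Of the outer membrane genes, Tomm40 had the highest peak of all members, at chr7:19715544-19716075, higher than 98.8% of promoter peaks. Its values were 71, 69, 74 and 75 in vehicle replicates 1 to 4 and 79, 72, 65 and 66 in myoglobin replicates 1 to 4. The log2 difference was -0.04 ± 0.12, and the 95% interval of -0.29 to 0.21 was the narrowest of any member. Tomm40l, its paralogue, had values of 24, 31, 29 and 29 in vehicle and 26, 26, 28 and 26 in myoglobin (-0.08). The receptors Tomm22 and Tomm70 had lower peaks, with 8, 11, 6 and 15 in vehicle and 10, 9, 4 and 9 in myoglobin at Tomm22 and 13, 15, 11 and 11 in vehicle and 8, 12, 15 and 16 in myoglobin at Tomm70, and log2 differences of -0.28 ± 0.36 and -0.00 ± 0.30. Tomm34, a cytosolic co-chaperone of precursors, was at -0.01. All 5 had overlapping groups.

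Of the inner membrane genes, Timm13, a small chaperone of the intermembrane space, had values of 34, 44, 43 and 56 in vehicle and 41, 38, 54 and 42 in myoglobin and a log2 difference of -0.01 ± 0.16. Timm17a, a subunit of the TIM23 channel complex, had 7, 12, 13 and 14 in vehicle and 10, 17, 4 and 9 in myoglobin and -0.29 ± 0.34, and Timm21, another TIM23 component, 14, 18, 15 and 19 in vehicle and 11, 11, 26 and 19 in myoglobin and -0.06 ± 0.27. Groups overlapped at all 3, and at Timm17a and Timm21 the lowest and the highest value were both from myoglobin.

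**Figure D3:**
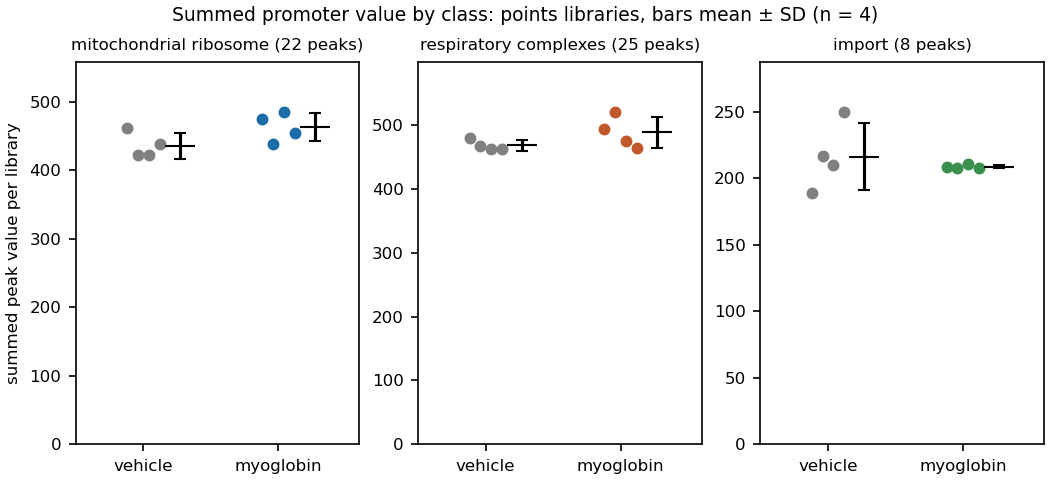
Points are summed peak values per library for the mitochondrial ribosome, respiratory complexes and import, with mean ± SD (n = 4) in black; each axis starts at 0. The ranges of vehicle and myoglobin overlap in every class.

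The precision of the differences varied with the level of the peak. The 95% intervals had half-widths of 0.25 (Tomm40) to 0.91 (Cox7c) on the log2 scale, with a median of 0.50. On this scale the interval held neither a doubling nor a halving of the vehicle mean at 42 of 55 members. At the other 13, most of them low peaks such as Mrpl33, Cox7c and Timm17a, a change of that size lay within the interval at this depth. Summed over members, the variance between libraries was 1.08 times that of sampling the estimated reads in vehicle and 1.22 times in myoglobin, against 1.14 and 1.07 times over promoter peaks. It was highest among the 3 classes in the respiratory complexes with myoglobin (1.39 times), where complex I reached 1.75 times, against 1.32 times in vehicle. In vehicle, inner membrane import also reached 1.75 times and the large ribosomal subunit 1.44 times. Import with myoglobin was at 0.736 times. The SD of a member was 18.7% of its mean at the median in vehicle, and 27% in the shallower myoglobin libraries. Only 4 members (7.27%) had a log2 difference beyond 0.5 in either direction, against 9.75% of promoter peaks.

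**Figure D4:**
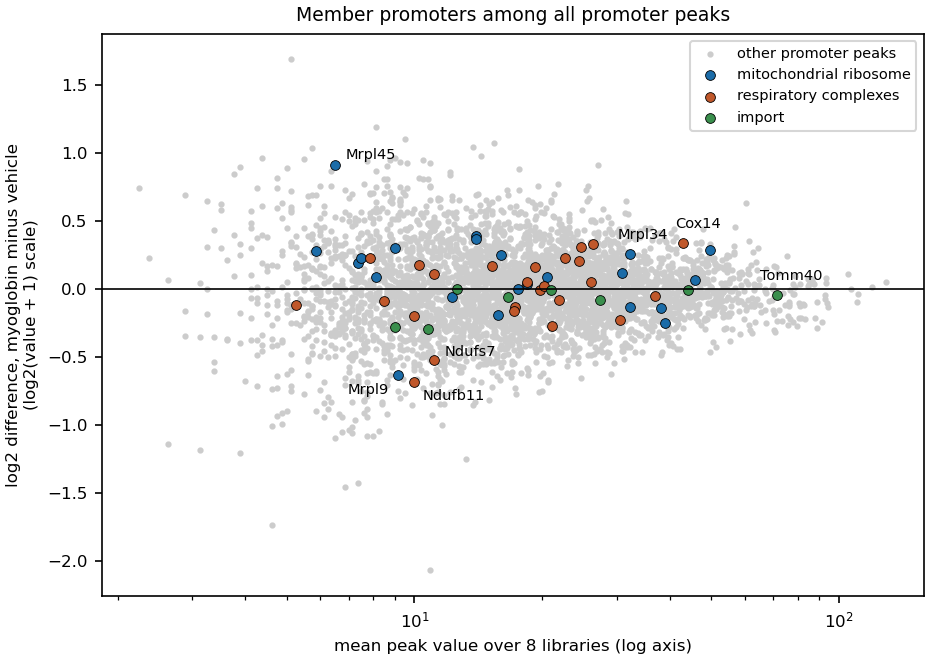
Log2 difference (myoglobin minus vehicle, log2(value + 1) scale) against mean value over 8 libraries (log axis) for all promoter peaks (grey) and members (coloured by class). Members lie inside the grey cloud, which narrows from low to high values; Mrpl45 (0.91) and Ndufb11 (-0.68) are at low values and Tomm40 (-0.04) at a high one.

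The rule's distance limit left out 5 peaks of matching genes. Just inside it, the farthest members were Mrpl20 at 694 bp, Ndufa11 at 575 bp and Ndufa12 at 444 bp. Just outside it was Atp5mc2, a subunit of the ATP synthase ring, at 1145 bp, with values of 13, 13, 15 and 18 in vehicle and 13, 29, 22 and 17 in myoglobin. The others were Cox7a2l at 2729 bp, Sdhaf1 at 3457 bp, Atp5if1 at 4100 bp and Ndufa7 at 4542 bp, with log2 differences of -0.36, -0.34, -0.32 and -0.58. None of the 5 passed the adjusted test.

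Sequence features of the members were read from 47 RefSeq promoter windows, 4 of them found by an older symbol; 3154 of all promoter peaks had such a window. NRF1 letters were in 7 member windows (14.9%), against 6.56% of the promoter peaks' windows and 2.71% of all 32851 windows. These were Mrpl9, Mrpl17, Mrpl32, Mrpl39, Ndufa11, Sdhb and Timm13. The windows of Ndufa11 and Mrpl20 did not overlap their peaks, which lie farther from the start, so the Ndufa11 match is outside the region measured. The NRF1 match of Timm13 and the YY1 matches of Ndufs7 and Mrps7 also lay outside their peaks, which their windows overlapped only in part. All matches in a window, inside the peak or not, stayed in the counts and medians given here. ETS letters were in 6 (12.8%, against 8.18% and 3.89%), among them Cox8a and Timmdc1 with 2 matches each, and YY1 letters in 5 (10.6%, against 4.76% and 2.75%). By the count of windows with a match, 17 of 47 members held at least 1 of these 3 motifs. That was so at 574 of the 3154 promoter peaks' windows and 2900 of all 32851 windows. NF-Y letters were in 20 (42.6%, against 49.7% and 37.4%) and the GC box GGGCGG in 26 (55.3%, against 78.1% and 35.7%). The CREB site TGACGTCA was in 1 window, that of Ndufa11 (2.13%, against 3.9%), and TATAAA in 2 (4.26%, against 4.06%). Overlapping matches were counted once.

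Members with the NRF1 letters had a median value of 14 and a median log2 difference of -0.01, against 17.4 and 0.02 for the members without. Members with ETS letters had medians of 19.7 and -0.00, against 16 and 0.04 without. Those with YY1 letters had medians of 18.4 and 0.04, against 17.2 and -0.00 without. Over all promoter peaks with a window, the median value was 14.6 with NRF1 letters and 17.75 without. It was 16 with ETS letters and 17.75 without, and 17.6 both with and without YY1 letters. Median values of members were 21.5 with NF-Y letters and 15.75 without, and 18.8 with the GC box and 11.1 without. Over promoter peaks these were 19.25 and 16, and 18.5 and 15. A match is a description of the window and shows no binding. Median GC content was 59.3% in members and 64% in the promoter peaks' windows.

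**Figure D5:**
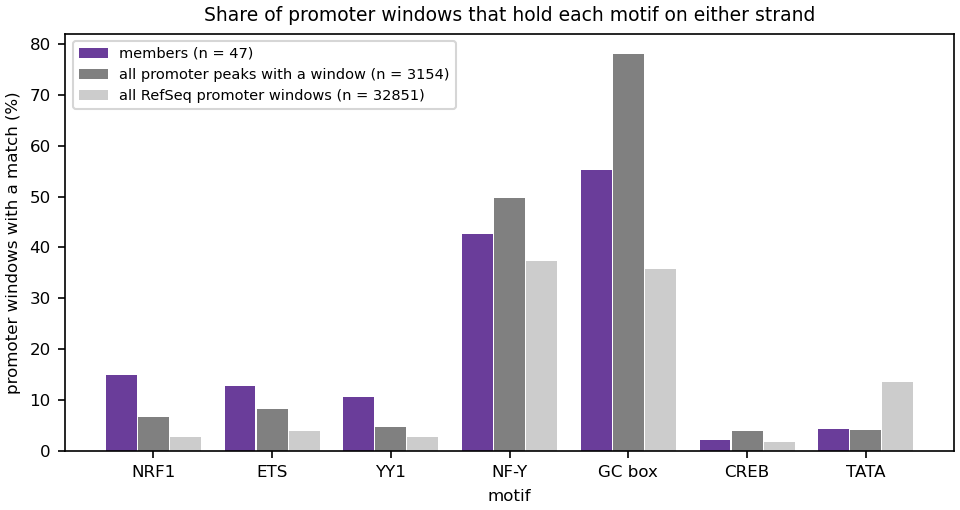
Bars give the percentage of promoter windows of 300 bases with at least 1 match on either strand, for members, for all promoter peaks with a window and for all RefSeq windows. NRF1, ETS and YY1 letters are more frequent in members (14.9%, 12.8% and 10.6%) than in the other sets, and the GC box is less frequent (55.3%) than in promoter peaks (78.1%).

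Several member peaks are shared with a neighbour. At least 10 members (18.2%) had the start of another gene within 1000 bp upstream on the opposite strand, against 17.1% of promoter peaks. Neighbour starts came from the RefSeq gene table, which is not complete, and each member's own start from the deposited table. By these starts, 5 peaks covered both. The RefSeq starts of Ndufb5, Mrpl32 and Mrps7, which their promoter windows use, lay outside their peaks. One of the 5 peaks joined 2 mitochondrial genes. The Ndufb5 peak covered the start of Mrpl47, a large-subunit gene 235 bp from the deposited Ndufb5 start that no peak in the deposited table is assigned to. Mrpl32 shared its peak with the proteasome gene Psma2, 77 bp away, Mrpl30 with Mitd1, Mrps7 with Gga3 and Ndufaf8 with Tepsin. At these peaks a value cannot be told apart between the neighbours.

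Other genes of mitochondrial upkeep were read from 5 lists at the same distance limit, and none of their 40 promoter peaks passed the adjusted test. Of 18 biogenesis regulators, 9 had a peak (genes such as Tfam, Gabpa and Esrra), 4 were above 0 and 5 below; the smallest p was at Mterf3, with 3, 6, 5 and 2 in vehicle and 5, 6, 7 and 7 in myoglobin (0.60 ± 0.45, adjusted p = 0.808 by limma). Tfb1m, a mitochondrial ribosomal RNA methyltransferase, had values of 47, 43, 50 and 43 in vehicle and 39, 41, 39 and 39 in myoglobin (-0.20 ± 0.16). It was the 1 peak of the 40 without overlap, beside 3.04% of all peaks and 2.88% of promoter peaks. Of 33 translation factors and tRNA synthetases 6 had a peak and 3 lay on each side, with the smallest p at Cars2 (0.36 ± 0.31, adjusted p = 0.844 by limma). Of 17 citrate cycle genes 6 had a peak and 5 were above 0, with the smallest p at Idh2 (0.31 ± 0.26, adjusted p = 0.839 by limma).

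An unadjusted limma p under 0.05 was found at 4 of the 40 peaks, beside 7.6% of all peaks and 6.97% of promoter peaks. By list, these were 3 of the 10 respiratory peaks and 1 of the 9 import peaks. Among 10 peaks from 27 other respiratory chain and assembly genes (median log2 difference -0.10), the smallest p was at Tmem126a, a complex I assembly gene, with values of 16, 8, 11 and 10 in vehicle and 9, 3, 9 and 3 in myoglobin. Its log2 difference was -0.91 ± 0.38 and its limma p 0.0183 unadjusted and 0.575 adjusted. Tmem126b, also a complex I assembly gene, stood the other way at 0.35 ± 0.18, as did Coa7, a complex IV assembly gene, at 0.75 ± 0.34. Among 9 peaks from 23 other import and processing genes (median 0.14), the smallest p was at Chchd4, the oxidoreductase that imports proteins into the intermembrane space. Its values were 44, 37, 39 and 33 in vehicle and 30, 37, 22 and 23 in myoglobin, with 1 myoglobin library inside the vehicle range. The log2 difference was -0.46 ± 0.19 and the limma p 0.0163 unadjusted and 0.565 adjusted.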

How the data were processed

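ATAC-seq was measured in 4 vehicle and 4 myoglobin libraries, grouped by their titles. The deposited values are treated as a score: the authors scaled the libraries and rounded to whole numbers, as the near-equal totals (124415 to 126782) and the regular steps of each column show. The build was mm10, and DESeq2 1.36.0, featureCounts, Picard 3.0.0, STAR 2.7.10a and Trimmomatic 0.39 were used, per the submitters' processing notes. Their roles, the peak caller, duplicate handling and any Tn5 shift are not given in the sources used here. All columns share one peak set, and how it was built bears on promoters that are open in only some libraries.

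Reads per library were estimated from the steps of each column; they are estimates and entered no test. Values were tested as log2(value + 1) with limma 3.58.1 in R 4.3.3 (variance trend, Benjamini-Hochberg adjustment over all 6425 peaks, threshold 0.05), which was tested on simulated data. Variance estimates leaned on all peaks (prior degrees of freedom 78.5, residual 6). Fold changes on this scale understate those of low peaks. Python 3.11.15 with pandas 2.3.3 and scipy 1.17.1 gave the summaries. Sequences, their windows and the starts of neighbouring genes came from RefSeq tables of GRCm38.p6. Peak distances and the member starts set beside neighbours came from the deposited table. Coordinates are as the deposited table gives them.

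The members and lists were chosen with earlier results of these data known. Described in detail were the highest peak and the one with the smallest p in each complex, peaks with an unadjusted p under 0.05, peaks whose groups do not overlap, the lowest peak of each class, those nearest the distance limit, and the smallest p of each related list; other members are given for completeness. Alternatives were other scalings, pseudocounts, low-value filters, variance models, distance limits, a promoter-only fit, a replicate block and left-out libraries. For 8 members no promoter window was used here.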

Additional observations from a re-analysis of the deposited data

Results flagged for a closer look

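Dixon's test at the 95% level picked out a single library in 11 of the 132 groups of values examined. Chance picks out about 5% of such groups, or 6.6 for continuous values, and small whole numbers with ties are picked out more easily. Among vehicle libraries, replicate 2 stood apart at Cox20 (24, the others 16 to 17), Mrps28 (38, the others 31 to 32), Ndufab1 (22, the others 19) and Mrps21 (6, the others 7). Vehicle replicate 3 stood apart at Ndufs8 (49, the others 32 to 34) and vehicle replicate 4 at Tomm34 (31, the others 17 to 19). Among myoglobin libraries, replicate 1 stood apart at Cox18 (12, the others 23 to 24) and Cox7c (9, the others 3 to 4). Myoglobin replicate 3 stood apart at Tomm22 (4, the others 9 to 10) and Tomm40l (28, the others 26). The summed value of the respiratory assembly factors was 138 in myoglobin replicate 4 and 132 to 133 in the others.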

How the results depend on the processing

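Under all 20 alternatives 0 members passed the adjusted limma test; the count at an unadjusted p under 0.05 ran from 1 to 6, and the lowest adjusted p was 0.31. The median log2 difference of the mitochondrial ribosome was 0.11 and ran from 0.07 to 0.19 with 1 library left out at a time; it was 0.20 without both of the shallowest myoglobin libraries. The respiratory median (0.02) ran from -0.04 to 0.05 and the import median (-0.05) from -0.13 to -0.04 with 1 library left out. Ndufaf8 was -0.23, and turned to 0.05 without myoglobin replicate 3 and to 0.16 without both shallowest myoglobin libraries; the cause was not tested. With 1 library left out at a time it ran from -0.37 to 0.05. Of 14 members whose difference exceeded its SE, this 1 changed sign, while 31 of all members did so under some alternative. Deviations of same-numbered libraries correlated at 0.026, 0.015, -0.013 and 0.009. The variance between libraries was near that of sampling the reads, so these values cannot show whether such libraries were paired. The fit with the replicate block called 0 members, with class medians of 0.11, 0.02 and -0.05. Depth limits the members with few reads.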
